A study of Mus musculus with 6 samples.

Results

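The 4 myogenic regulatory factors Myod1, Myf5, Myf6 and Myog and the paired-box genes Pax7 and Pax3 were followed in RNA sequencing libraries of C2C12, an established mouse myoblast line that fuses into myotubes when serum is changed. The 6 genes were taken by symbol from a deposited table of 43074 gene symbols. Each of 3 groups had 2 libraries, from wild-type C2C12 cells of the same labelled batch. The day 0 group was untreated. Growth medium held 10% fetal bovine serum for all groups. The other groups had been kept for 4 days in differentiation medium with 5% horse serum, so that day 0 and day 4 also differed in medium. The control group had DMSO and the treated group had 1 mM 4-phenylbutyric acid (4-PBA). 4-PBA is an aromatic short-chain acid that inhibits histone deacetylases and can act as a chemical chaperone. C2C12 is 1 cell line, and the labels do not say whether replicate libraries came from separate cultures. The p-values therefore measure only the spread between these libraries, which may be technical.

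The myogenic regulatory factors are basic helix-loop-helix transcription factors. They pair with E proteins, bind the E-box motif CANNTG and switch on muscle genes, and the Id proteins block them by taking the E proteins away. Myod1 and Myf5 commit cells to the muscle lineage, Myog drives terminal differentiation, and Myf6 (also called MRF4) is best known from later stages and mature fibres. Pax7 and Pax3 are paired-domain and homeodomain factors that act upstream of Myod1 and Myf5, Pax7 in satellite cells of adult muscle and Pax3 mainly in embryonic progenitors.

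Promoters of 3 of the 6 genes (Myog, Myf5 and Pax7) were in the RefSeq promoter table for build GRCm38.p6. The windows of Myog and Myf5 are shown because these genes had the largest rise and the only called fall among the 6. Each is the 250 bases upstream of the annotated transcription start, 5′ to 3′ on the gene's strand. Capitals mark matches to CANNTG or to TCAGGTTTC, the MEF3 element found in muscle gene promoters, in either orientation. Myog lies on the plus strand and its window is chr1:134289754-134290003. Myf5 lies on the minus strand and its window is chr10:107486135-107486384.
Myog: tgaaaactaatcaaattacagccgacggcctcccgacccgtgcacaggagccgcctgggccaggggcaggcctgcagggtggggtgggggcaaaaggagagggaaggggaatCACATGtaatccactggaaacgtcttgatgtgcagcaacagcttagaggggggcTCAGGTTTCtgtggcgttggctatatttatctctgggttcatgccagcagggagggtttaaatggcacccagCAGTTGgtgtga
Myf5: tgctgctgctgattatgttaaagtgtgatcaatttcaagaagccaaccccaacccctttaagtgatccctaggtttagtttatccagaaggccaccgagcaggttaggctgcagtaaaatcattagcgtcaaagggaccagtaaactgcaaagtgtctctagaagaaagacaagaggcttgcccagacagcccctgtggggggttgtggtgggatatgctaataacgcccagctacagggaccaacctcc
In the Myog window, CACATG lay 138 to 133 bases, TCAGGTTTC 84 to 76 bases and CAGTTG 12 to 7 bases before the start, all on the strand shown. CAGTTG is also a match to the narrower E-box CAGNTG. Of 32817 mouse promoter windows of the same length, 66.2% held CANNTG, 31.8% held it at 2 or more places, 44.8% held CAGNTG and 0.387% held TCAGGTTTC. The windows of Myf5 and Pax7 had no match to any of these 3 motifs. None of the 3 windows matched TATAAA, held by 12.4% of promoters, or the strict MEF2 consensus YTAWWWWTAR, held by 2.92%. Here Y is C or T, W is A or T, and R is A or G. The stretch CTATATTTAT in the Myog window differed from this consensus only in its last letter. A match is a description of the letters and not a binding site, and a missing match says only that those letters are not in the window. GC content was 56.4% for Myog, 48.8% for Myf5 and 65.2% for Pax7, beside a median of 52.4% over all windows.

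Total counts were between 47908926 and 74697397 per library, so that 1 count was worth 0.0135 to 0.0206 CPM (the count relative to the TMM-scaled library size). The 10 most abundant genes held 4.84% to 5.09% of counts. Des, which encodes the muscle intermediate filament desmin, was at 877 to 885 CPM at day 0 and 2044 to 2226 CPM at day 4. Cdh15 (M-cadherin) was at 292 to 294 CPM at day 0 and 544 to 600 CPM at day 4. Of the other identity genes, Myod1 was slightly higher at day 4 and Myf5 was lower. Msc was lower too, at 38.4 to 41.7 CPM at day 0 and 10.8 to 12.6 CPM at day 4. All 5 identity genes stood at 10.8 CPM or more in every library and moved in both directions. This bound is their own lowest value, and Myod1 and Myf5 are among the 6 genes studied. Genes of other lineages, such as Sox9 and Tubb3, also stood above it in every library, so this level alone cannot decide the lineage. Markers of 8 other lineages were low or rested on 1 or a few genes. The 5 macrophage markers summed to 1.63 to 6.11 CPM and the 5 endothelial markers to 1.35 to 2.63 CPM. Sox10 and Myl7 were at 0 in all libraries. The adipocyte, osteoblast, chondrocyte, neural and cardiomyocyte sums were nearly all Pparg, Runx2, Sox9, Tubb3 and Gata4. Over the 6 libraries Tubb3 was at 125.0 to 170.9 CPM, Sox9 at 105.9 to 131.7 CPM and Runx2 at 51.6 to 81.0 CPM. Gata4 was at 21.6 to 31.8 CPM and Pparg at 6.97 to 18.9 CPM. At day 0 Tubb3 and Sox9 thus stood above Myod1. The 6 fibroblast markers summed to 51.1 to 52.3 CPM at day 0, 67.8 to 71.0 CPM with DMSO and 72.2 to 75.6 CPM with 4-PBA. Most of each sum was Cd34 and Pdgfra. Cd34 (35.6 to 36.1 CPM at day 0, 44.3 to 50.8 CPM at day 4) and Pi16 (0.206 to 0.342 and 7.02 to 8.11 CPM) were higher at day 4. Dpt and Col15a1 were also higher in every day 4 library, at up to 3.57 CPM. Pdgfra was lower, at 13.7 to 14.0 CPM at day 0 and 11.0 to 13.4 CPM at day 4, and Dpp4 was at most at 0.0674 CPM. The part of these markers in the differences between day 0 and day 4 was not tested.

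Per kilobase of exon, Myog lay below Myod1 and Myf5 at day 0 and above both at day 4, while Myod1 stayed above Myf5. Myog rose 36.4-fold with DMSO and 36.5-fold with 4-PBA, Pax7 rose from a trace level, Myod1 rose slightly and Myf5 fell to 0.455 (DMSO) and 0.475 (4-PBA) of its day 0 level. No change was called for Myf6 or Pax3, both at trace levels. With DMSO against day 0, edgeR's quasi-likelihood test called 4 of the 6 genes at an adjusted p under 0.05, 3 higher and 1 lower. The same test called 66.3% of all 17433 tested genes, 33.8% higher and 32.6% lower, so the share of called members is near the background. The 4-PBA libraries also gave 3 higher and 1 lower against day 0, where 65.6% of all genes were called, 33.2% higher and 32.4% lower. Both comparisons use the same day 0 libraries. Between 4-PBA and DMSO, none of the 6 was called by edgeR or limma-voom, and none had an unadjusted edgeR p under 0.05. DESeq2 did not call Myod1, Myf5 or Myog and gave no adjusted p for Myf6, Pax7 or Pax3. In that comparison 4.9% of all genes were called, 2.13% higher and 2.78% lower. In bulk RNA, a change in the share of cells that express a gene and a change in RNA per cell cannot be told apart.

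**Figure D1:**
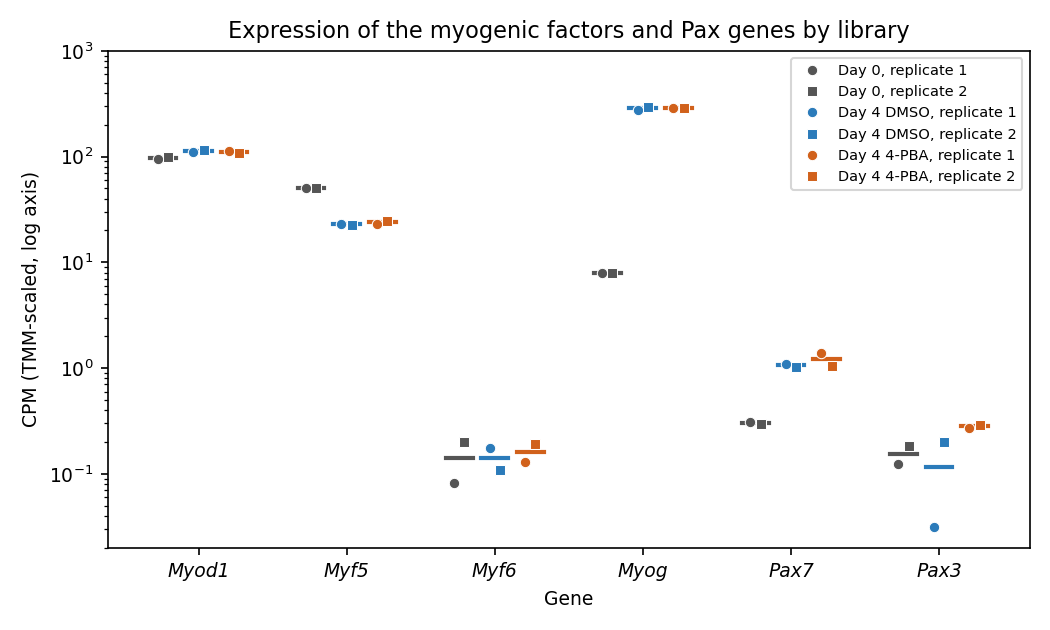
Expression of each gene in each library, in CPM on a log axis; circles are replicate 1, squares are replicate 2, and the bar is the mean of the 2 libraries of a group. Myog moves from 7.90 CPM at day 0 to 287.0 and 288.1 CPM at day 4, Myf5 moves down, and the DMSO and 4-PBA points lie close together except for Pax3.

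Myod1, the factor that can convert fibroblasts to muscle, was the most abundant of the 6 per kilobase of exon at day 0. The day 0 libraries stood at 95.8 and 99.1 CPM, the DMSO libraries at 111.3 and 116.1 CPM, and the 4-PBA libraries at 112.6 and 107.8 CPM. All 4 day 4 libraries lay above both day 0 libraries, and the DMSO and 4-PBA libraries overlapped. The rise with DMSO was small, a log2 fold change of 0.22 (SE 0.038; edgeR adjusted p = 3.80e-06), with a 95% interval of 1.11 to 1.23 for the fold. With 4-PBA it was 0.18 (SE 0.0382; edgeR adjusted p = 0.000118), with an interval of 1.07 to 1.19. Among all tested genes the median absolute log2 fold change was 0.48 with DMSO and 0.47 with 4-PBA, so Myod1 changed by less than the median gene.

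Myf5 marks proliferating myoblasts beside Myod1. Its level was 50.4 and 49.98 CPM before differentiation, 23.1 and 22.7 CPM in the DMSO libraries, and 23.2 and 24.5 CPM in the 4-PBA libraries. Every day 4 library lay below both day 0 libraries, and both 4-PBA libraries lay just above both DMSO libraries. Myf5 fell by 1.14 on the log2 scale with DMSO (SE 0.0572; edgeR adjusted p = 5.96e-19), to 0.455 of its day 0 level with an interval of 0.420 to 0.494. With 4-PBA it fell by 1.07 (SE 0.0574; edgeR adjusted p = 3.46e-18), to 0.475 of its day 0 level with an interval of 0.438 to 0.515. Myod1 and Myf5, the pair of factors that commit cells to the lineage, thus moved in opposite directions.

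Myog, which encodes myogenin, showed the largest change of the 6. Its level was 7.94 and 7.85 CPM before differentiation, 277.0 and 297.1 CPM in the DMSO libraries, and 288.9 and 287.3 CPM in the 4-PBA libraries. The day 0 libraries, with 386 and 551 counts, were well above the worth of a few counts, so that Myog RNA was already measurable before the medium was changed. Both 4-PBA libraries lay between the 2 DMSO libraries. The rise was 36.4-fold with DMSO (95% interval 34.1 to 38.8; edgeR adjusted p = 3.18e-41) and 36.5-fold with 4-PBA (34.2 to 39.0; edgeR adjusted p = 3.15e-41).

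Myf6, the fourth factor, stayed at trace level. The day 0 libraries held 4 and 14 counts, the DMSO libraries 11 and 8, and the 4-PBA libraries 8 and 12. In CPM these were 0.0823 and 0.199, 0.174 and 0.108, and 0.129 and 0.193, and the 3 groups overlapped. The log2 fold change was -0.08 with DMSO (SE 0.713) and 0.13 with 4-PBA (SE 0.714), and neither was called (edgeR adjusted p = 0.933 and 0.887). The 95% intervals of the fold were 0.347 to 2.59 and 0.400 to 2.99, and both include 2-fold changes in either direction. Its sign changed when single libraries were left out, for example to 0.75 with DMSO without day 0 replicate 2. Myf6 and Myf5 are next to each other on chromosome 10 in the RefSeq gene order.

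Pax7, the satellite cell factor, rose from a trace level. The day 0 libraries held 15 and 21 counts, the DMSO libraries 69 and 76, and the 4-PBA libraries 87 and 65. In CPM these were 0.309 and 0.299, 1.09 and 1.02, and 1.40 and 1.05. All day 4 libraries lay above both day 0 libraries, and the DMSO and 4-PBA libraries overlapped. The rise was 3.47-fold with DMSO (95% interval 2.13 to 5.65; edgeR adjusted p = 2.37e-05) and 4.02-fold with 4-PBA (2.48 to 6.52; edgeR adjusted p = 3.95e-06). Pooling the counts of a group gave 0.303 CPM at day 0 (exact Poisson 95% interval 0.212 to 0.420), 1.06 CPM with DMSO (0.891 to 1.24) and 1.22 CPM with 4-PBA (1.04 to 1.44). These intervals cover counting error only. Per kilobase of exon, Pax7 stood at 0.181 ± 0.00833 CPM with DMSO (SD, n = 2), beside 61.1 ± 1.85 for Myod1.

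Pax3 was measured by few counts. The day 0 libraries held 6 and 13, the DMSO libraries 2 and 15, and the 4-PBA libraries 17 and 18. In CPM these were 0.123 and 0.185, 0.0317 and 0.202, and 0.274 and 0.290. The day 0 and DMSO libraries overlapped, and both 4-PBA libraries lay above all others. No comparison was called. The log2 fold change was -0.37 with DMSO against day 0 (SE 0.730; edgeR adjusted p = 0.673) and 0.83 with 4-PBA against day 0 (SE 0.667; edgeR adjusted p = 0.281). Pooled counts gave 0.160 CPM at day 0 (exact Poisson 95% interval 0.0963 to 0.250), 0.124 CPM with DMSO (0.0721 to 0.198) and 0.282 CPM with 4-PBA (0.196 to 0.392).

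**Figure D2:**
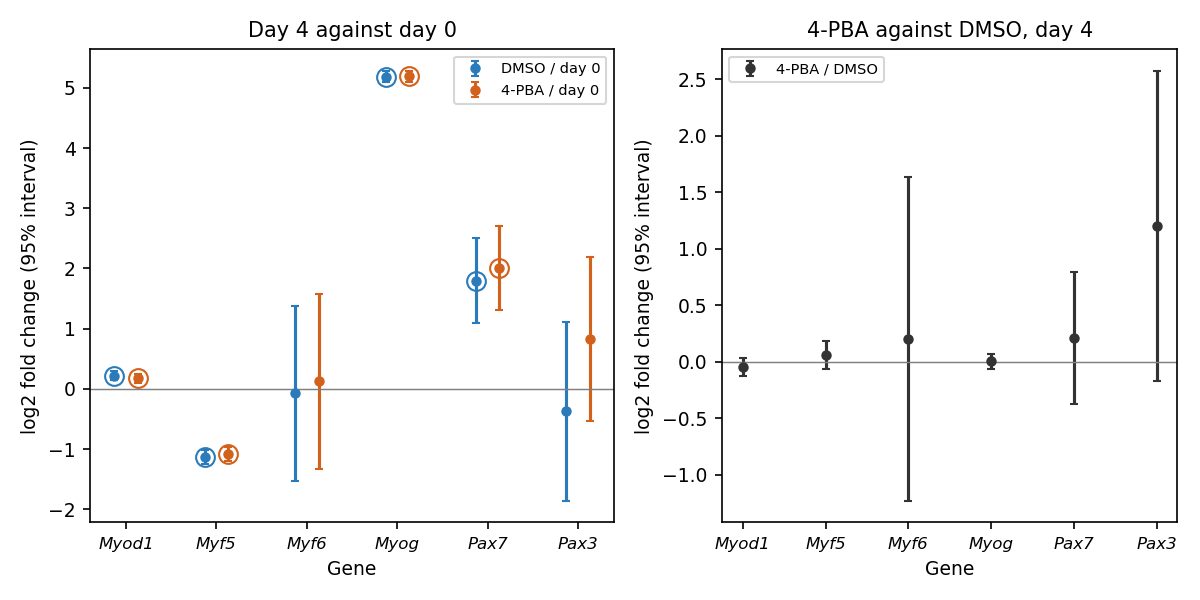
Log2 fold change of each gene from the edgeR fit with its 95% interval, for day 4 against day 0 (left; blue DMSO, orange 4-PBA, ringed where called) and for 4-PBA against DMSO (right). On the left Myog stands near 5.2 and Myf5 near -1.1; on the right every interval includes 0, narrowly for Myod1, Myf5 and Myog and widely for Myf6, Pax7 and Pax3.

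The comparison of 4-PBA with DMSO asked whether the drug altered these factors during differentiation. No difference was called, and the precision of that statement differs by gene. For Myog the fold was 1.00, with a 95% interval of 0.957 to 1.05 (edgeR adjusted p = 0.972). For Myod1 it was 0.969, with an interval of 0.919 to 1.02 (edgeR adjusted p = 0.618). For Myf5 it was 1.04, with an interval of 0.959 to 1.14 (edgeR adjusted p = 0.691). All 3 intervals thus lie between 0.919 and 1.14. The trace genes were far less certain. The interval was 0.772 to 1.73 for Pax7 (edgeR adjusted p = 0.803) and 0.427 to 3.11 for Myf6 (edgeR adjusted p = 0.932). Pax3 had the largest fitted difference, 2.30-fold, with an interval of 0.890 to 5.97 (edgeR adjusted p = 0.388). The pooled-count ratio of Pax3 was 2.28 (1.24 to 4.33, counting error only), but the 2 DMSO libraries, with 2 and 15 counts, gave very different values. The log2 fold change of Pax3 was 1.20 with all libraries, 0.47 when DMSO replicate 1 was left out and 3.07 when DMSO replicate 2 was left out. It was called in none of these fits.

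Levels of different genes were compared as CPM per kilobase of exon. At day 0 Myod1 stood at 52.4 ± 1.24, Myf5 at 24.1 ± 0.145 and Myog at 5.28 ± 0.0442 CPM per kilobase (SD, n = 2). With DMSO, Myog stood at 192.0 ± 9.47, Myod1 at 61.1 ± 1.85 and Myf5 at 10.97 ± 0.140. With 4-PBA the same 3 genes stood at 192.7 ± 0.773, 59.2 ± 1.82 and 11.4 ± 0.469. Within each group these 3 levels were separated by far more than their SD. Myf6, Pax7 and Pax3 lay between 0.0189 and 0.209 CPM per kilobase as group means. At day 0 the gap between Myf6 (0.112 ± 0.0656) and Pax7 (0.0519 ± 0.00115) was smaller than the SD of Myf6.

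**Figure D3:**
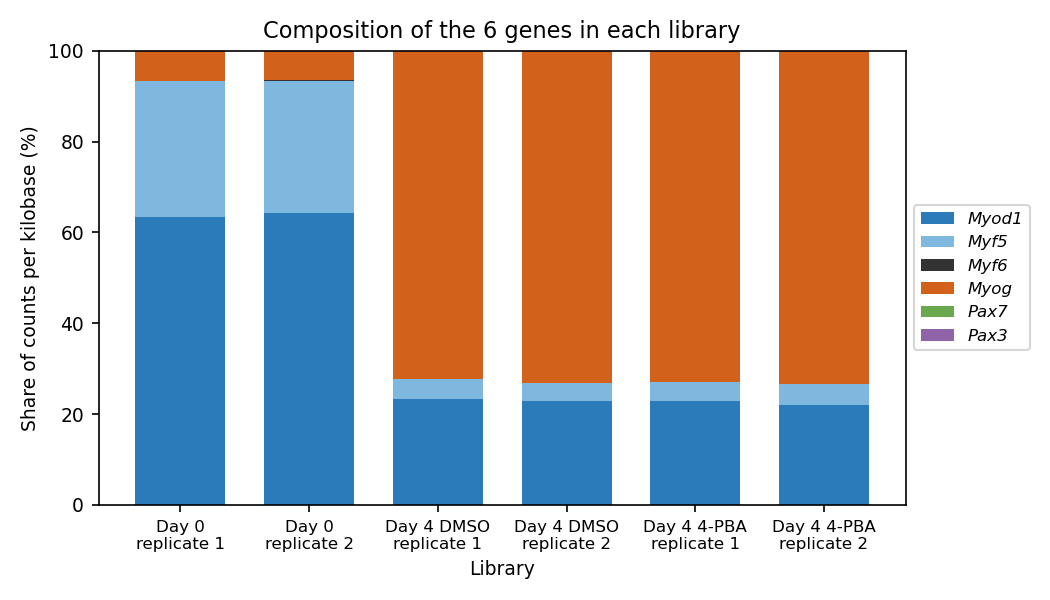
Share of each of the 6 genes in their summed counts per kilobase, in percent, for each library. Myod1 fills 63.4% to 64.4% of the bar at day 0 and Myog 72.2% to 73.3% at day 4, while Myf6, Pax7 and Pax3 are too thin to see.

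As a composition of the 6 genes, which needs no scaling between libraries, Myod1 held 63.9% ± 0.637 at day 0, Myf5 29.4% ± 0.579 and Myog 6.45% ± 0.142. With DMSO, Myog held 72.6% ± 0.519, Myod1 23.1% ± 0.276 and Myf5 4.16% ± 0.228. With 4-PBA the values were 73.1% ± 0.297, 22.5% ± 0.509 and 4.34% ± 0.213. Myf6, Pax7 and Pax3 each held at most 0.191% in any library. The ratio of Myog to Myod1 per kilobase was 0.103 and 0.0986 in the day 0 libraries, 3.10 and 3.19 in the DMSO libraries, and 3.20 and 3.32 in the 4-PBA libraries. In the same order the ratio of Myf5 to Myod1 was 0.470 and 0.451, 0.185 and 0.174, and 0.184 and 0.203. Day 0 and day 4 libraries did not overlap in either ratio. The summed level of the 6 genes was 81.9 ± 1.12 CPM per kilobase at day 0, 264.4 ± 11.2 with DMSO and 263.8 ± 2.13 with 4-PBA. These values depend on the gene length used, and with coding length the ratio of Myf5 to Myod1 was 0.643 at day 0.

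The genes most like each member were those with the smallest root mean square distance between centred log2 CPM profiles over the 6 libraries. Tested genes of at least 5 CPM were searched for Myod1, Myf5 and Myog. Closest to Myod1 were Pdpk1 (distance 0.0153), Efr3a (0.0174) and Agpat3 (0.0174), among 10678 candidates. Closest to Myf5 were Nup107 (0.0224), a nuclear pore component, Tmem97 (0.0230) and Dek (0.0237). Closest to Myog were Dcn (0.0474), which encodes the matrix proteoglycan decorin, Tnnc1 (0.0547), which encodes a troponin C, and R3hdml (0.112). Dcn was at 8.15 CPM at day 0, 281.3 CPM with DMSO and 289.7 CPM with 4-PBA, while Myog was at 7.90, 287.0 and 288.1 CPM. Closest to Pax7 were Pcdhb5 (0.0858), 4930426L09Rik (0.0877) and Esr1 (0.0919), the estrogen receptor alpha gene, which went from 3.56 to 11.5 CPM with DMSO. For Myf6 the closest was Bmerb1 (0.103) and for Pax3 it was Parm1 (0.263). The search took genes with a mean of at least 0.431 CPM for Pax7, 0.0738 CPM for Myf6 and 0.0922 CPM for Pax3. The matches of Pax7, Myf6 and Pax3 rest on few counts of these genes.

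Nearest protein-coding neighbours in the RefSeq gene order were examined after the values of the 6 genes were known. Over all tested genes 33.8% were called higher with DMSO and 32.6% lower. Both neighbours of Myog rose with DMSO. Ppfia4 went from 2.62 to 121.9 CPM (log2 fold change 5.56, SE 0.0693) and Adora1, an adenosine receptor gene, from 0.0499 to 2.10 CPM (5.12, SE 0.423). Exons of Adora1 overlap the muscle gene Mybph on the opposite strand, so its reads may not be its own. Beside Myod1, Otog went from 0.875 to 34.7 CPM (5.23, SE 0.157), beside 0.22 for Myod1 itself, and Kcnc1, a potassium channel gene, from 0.0696 to 0.875 CPM (3.66, SE 0.520). Beyond Myf6, Ptprq fell by 0.89 (SE 0.168), from 4.84 to 2.58 CPM. Beside Pax3, Epha4, an ephrin receptor gene, fell by 2.46 (SE 0.134), from 15.9 to 2.90 CPM, while no change was called for Pax3. Beside Pax7, Tas1r2 was at 2.43 and 2.51 CPM and was not called. The other neighbours of Myf5, Pax7 and Pax3 were untested or not among the deposited gene symbols. With 4-PBA against DMSO none of the tested neighbours was called. The smallest edgeR adjusted p-values were 0.0521 for Ppfia4 (log2 fold change -0.15) and 0.0526 for Otog (-0.35).

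Dimer partners and antagonists of the myogenic factors formed a list of 27 genes, of which 22 were tested. With DMSO 12 were called higher and 8 lower, with a median log2 fold change of 0.33. Over all tested genes 33.8% were called higher and 32.6% lower, with a median of 0.02. With 4-PBA against day 0 the counts were also 12 and 8 (median 0.24), beside 33.2% and 32.4% of all genes (median 0.02). Heyl, a Notch effector, rose from 4.77 ± 0.678 to 53.6 ± 2.60 CPM (log2 fold change 3.51, SE 0.0749) and Bhlhe40, a helix-loop-helix repressor, from 100.0 ± 0.731 to 354.8 ± 1.52 CPM (1.83, SE 0.032). Hes6 rose by 1.55 (SE 0.0534) with DMSO and by 1.64 (SE 0.0535) with 4-PBA against day 0. It was not called between 4-PBA and DMSO (0.09, SE 0.0489; edgeR adjusted p = 0.380). The E proteins and Id genes are described as whole families, chosen after their values were seen. Tcf3, which encodes E12 and E47, fell by 0.39 (SE 0.0337) with DMSO, while Tcf4 rose by 0.95 (SE 0.0336) and Tcf12 by 0.27 (SE 0.0331). At day 4 the E-protein genes stood at 161.6 to 207.0 CPM as group means. Id1 fell by 2.40 (SE 0.0707), from 57.0 ± 1.31 to 10.8 ± 1.32 CPM. Id2 fell by 2.06 (SE 0.0755), from 42.7 ± 1.95 to 10.3 ± 1.07 CPM, and Id3 fell by 2.395 (SE 0.0613), from 80.3 ± 1.61 to 15.3 ± 1.24 CPM. Id4 was called lower too, but was at most at 0.453 CPM in any library.

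Between 4-PBA and DMSO, 2 genes of this list were called higher and 2 lower (median 0.07), beside 2.13% and 2.78% of all tested genes (median 0.00). Bhlhe40 was lower by 0.22 (log2 fold change -0.22, SE 0.0304; edgeR adjusted p = 1.02e-05) and Id2 went from 10.3 to 8.10 CPM (-0.34, SE 0.0855; edgeR adjusted p = 0.0125). Hes1, a Notch effector, was higher (0.15, SE 0.0427; edgeR adjusted p = 0.0276), as was Scx, which encodes scleraxis, a tendon factor (0.13, SE 0.0388; edgeR adjusted p = 0.0423). None of the 3 E-protein genes was called.

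Upstream and cooperating transcription factors formed a list of 32 genes, of which 24 were tested. With DMSO 12 were called higher and 6 lower (median 0.17), and with 4-PBA against day 0 14 higher and 6 lower (median 0.38). Called genes of either direction were thus 18 and 20 of 24, beside 66.3% and 65.6% of all tested genes. Mef2c, which encodes a MADS-box factor that works with Myog, rose from 7.50 ± 0.0368 to 69.6 ± 1.48 CPM (log2 fold change 3.21, SE 0.0601). Mef2a rose from 124.9 ± 0.332 to 332.7 ± 7.40 CPM (1.41, SE 0.0319). Eya1, a transcriptional co-activator gene, fell by 0.74 (SE 0.0613) and Meis1, a homeodomain partner, fell by 0.59 (SE 0.0691). Between 4-PBA and DMSO 1 gene was called higher and 3 lower, beside 4.9% of all genes called. Klf5 (-0.20, SE 0.0516) and Tead4 (-0.15, SE 0.0417) were among the lower ones.

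Chromatin partners of the myogenic factors formed a list of 27 genes, all tested. With DMSO 10 were called higher and 15 lower (median -0.18), and with 4-PBA against day 0 10 higher and 14 lower (median -0.15). These were 25 and 24 called genes of 27, beside 66.3% and 65.6% of all tested genes. Smyd1, which encodes a muscle-specific methyltransferase, rose from 10.8 ± 0.0964 to 74.8 ± 0.737 CPM (log2 fold change 2.79, SE 0.0541), and Smarca2, a remodelling ATPase gene, rose by 0.85 (SE 0.111). Suv39h1, a histone H3 lysine methyltransferase gene, fell by 1.69 (SE 0.0521), from 93.7 ± 0.897 to 29.2 ± 2.48 CPM. Ezh2, the catalytic gene of the Polycomb repressive complex that deposits repressive histone marks, fell by 1.36 (SE 0.0429), from 110.4 ± 0.345 to 42.9 ± 0.751 CPM. Between 4-PBA and DMSO 2 genes of this list were called higher and 1 lower (median 0.03), beside 2.13% and 2.78% of all tested genes. Ezh2 was 1 of the 2 called higher, at 51.2 ± 0.676 CPM with 4-PBA (0.25, SE 0.0439; edgeR adjusted p = 0.000295), and Mapk14, the p38 kinase gene, was the other (0.15, SE 0.0392). Hdac4, a class IIa histone deacetylase gene, was the only one called lower (-0.18, SE 0.0499; edgeR adjusted p = 0.0301).

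Classic targets of the myogenic factors, such as sarcomere, acetylcholine receptor and fusion genes, formed a list of 40 genes, of which 39 were tested. All 39 were called higher with DMSO and with 4-PBA against day 0, with median log2 fold changes of 4.88 and 4.63, beside 33.8% and 33.2% of all tested genes called higher. The list was written with earlier results of these data known. Its counts, also those between 4-PBA and DMSO below, therefore describe the list and are not independent evidence. The rises with DMSO lay between 0.68 for Musk and 6.95 for Ckm. Myl4 rose from 5.13 ± 0.832 to 561.7 ± 11.6 CPM (6.80, SE 0.0626), and Ckm, the muscle creatine kinase gene, from 0.955 ± 0.686 to 107.9 ± 5.57 CPM (6.95, SE 0.281). Myh3, the embryonic myosin heavy chain gene, rose by 6.76 (SE 0.0398) with 4-PBA against day 0, from 18.9 ± 0.307 to 2043 ± 41.4 CPM.

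**Figure D4:**
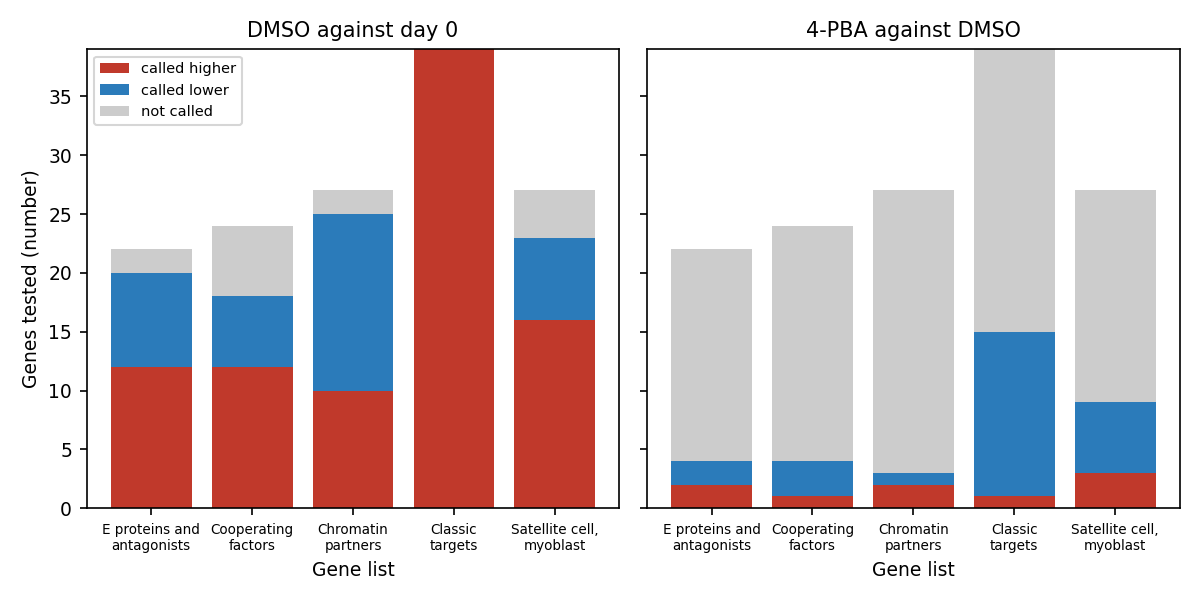
Number of tested genes of each list called higher (red), called lower (blue) or not called (grey) by edgeR, with DMSO against day 0 (left) and 4-PBA against DMSO (right). All 39 tested classic targets are red on the left, and 14 of them are blue on the right with 1 in red.

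While Myog and Myod1 were not called between 4-PBA and DMSO, 14 of the 39 tested targets were called lower and 1 higher, with a median log2 fold change of -0.09. Over all tested genes 2.78% were called lower and 2.13% higher, with a median of 0.00. Neb, which encodes nebulin, stood at 472.2 ± 23.4 CPM in DMSO cells but at 361.2 ± 3.25 CPM under 4-PBA (-0.39, SE 0.0346; edgeR adjusted p = 1.94e-08). Chrng, the fetal acetylcholine receptor subunit gene, went from 190.9 ± 16.1 to 147.6 ± 0.647 CPM (-0.37, SE 0.0441; edgeR adjusted p = 1.82e-05). Cdh15 was higher and went from 553.9 ± 13.7 to 598.0 ± 3.01 CPM (0.11, SE 0.0289; edgeR adjusted p = 0.0171). The other targets called lower were Des, Chrnd, Mymk, Klhl41, Ttn, Actc1, Trim63, Acta1, Itga7, Cdkn1a, Mymx and Myom1. They include both genes of the fusion pair myomaker (Mymk, 378.0 to 336.3 CPM) and myomixer (Mymx, 63.8 to 50.2 CPM). Leaving out DMSO replicate 1 gave 24 lower targets, and leaving out 4-PBA replicate 1 or replicate 2 gave 7 or 8. The single higher call was lost without DMSO replicate 2 or either 4-PBA replicate.

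Satellite cell and myoblast genes formed a list of 29, of which 27 were tested. With DMSO 16 were called higher and 7 lower (median 0.24), and with 4-PBA against day 0 15 higher and 9 lower (median 0.34). These were 23 and 24 called genes of 27, beside 66.3% and 65.6% of all tested genes. Sox8 rose from 1.00 ± 0.0918 to 10.9 ± 0.828 CPM with DMSO (log2 fold change 3.45, SE 0.133), and Spry1, a receptor tyrosine kinase inhibitor gene, rose by 3.11 (SE 0.116). Fgfr4, a fibroblast growth factor receptor gene, rose by 3.66 (SE 0.216) with 4-PBA against day 0. Hmga2, a chromatin architectural factor gene, fell by 2.80 (SE 0.0442), from 524.0 ± 8.01 to 75.4 ± 6.62 CPM, and Met, the hepatocyte growth factor receptor gene, fell by 1.49 (SE 0.0415). Between 4-PBA and DMSO 3 genes were called higher and 6 lower (median -0.02), beside 2.13% and 2.78% of all genes. Sox8 was higher with 4-PBA, at 19.4 ± 0.544 against 10.9 ± 0.828 CPM (0.83, SE 0.0889; edgeR adjusted p = 1.67e-07), and so was the chemokine receptor gene Cxcr4 (0.35, SE 0.0769). Hmga2 was lower, at 57.0 ± 0.596 against 75.4 ± 6.62 CPM (-0.40, SE 0.0448; edgeR adjusted p = 1.82e-05), as was Sox9 (-0.27, SE 0.0358).

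Of the 7 other Pax genes, Pax5, Pax6 and Pax8 were tested. Pax5, a B-cell factor, rose from 4.24 ± 0.291 to 7.33 ± 0.0955 CPM with DMSO (log2 fold change 0.78, SE 0.135; edgeR adjusted p = 4.21e-06) and was at 5.98 ± 1.26 CPM with 4-PBA. Pax8 fell with DMSO (-0.93, SE 0.382; edgeR adjusted p = 0.0324) and stayed under 1 CPM, and no change of Pax6 was called. None of the 3 was called between 4-PBA and DMSO.

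Exons of none of the 6 members overlap another gene in GENCODE M21. Among the other named genes, exons of Bhlhe40, Ckm, Myl4, Neb, Des, Ttn, Itga7, Cdkn1a, Myom1, Mef2a, Meis1, Ezh2, Hdac4, Smarca2, Suv39h1, Hmga2, Spry1, Sox8, Id4, Pax5, Pax8, Agpat3, Dek, Cd34, Pdgfra, Pi16, Col15a1, Msc, Runx2 and Adora1 overlap a gene on the opposite strand. The library kit kept strand, but whether counting used it is not given in the sources used here, so these values are uncertain. Exons of Meis1, Pdgfra and Tas1r2 overlap a gene on the same strand, and Bmerb1 was not matched by name.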

How the data were processed

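The deposited values are raw counts per gene symbol from the authors, with 1 column per library. Per the labels' protocols, DNase-treated total RNA was made into directional libraries. The genome build was GRCm39, per the submitters' processing notes. The aligner, counter, annotation and strand setting are not given in the sources used here.

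edgeR 4.0.16 (R 4.3.3) was run on the counts. filterByExpr kept genes with at least 0.159 CPM in 2 or more libraries and a total of 15. This left 17433 of 43074 symbols, with all 6 members among them. After TMM scaling, group means were fitted over all 6 libraries (estimateDisp, robust glmQLFit; 3 residual degrees of freedom). P-values came from quasi-likelihood F tests, were Benjamini-Hochberg adjusted across the 17433 genes and were called under 0.05. SE was the log2 fold change divided by the square root of F, and 95% intervals used a t distribution with the residual plus prior degrees of freedom. An exact permutation of 2 against 2 libraries cannot give a two-sided p under 0.333, so every call leans on the spread estimated across genes. The biological coefficient of variation was 3.74% in common, 15.2% for Pax7, 27.9% for Myf6 and 28.8% for Pax3. Replicates differed by more than sampling noise, with chi-square per degree of freedom of 3.77 to 6.64.

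The test was checked on simulated data, with changed genes drawn from those of at least 1 CPM. False calls stayed near the nominal rate when genes of like expression shared their spread, and ran somewhat above it when spreads differed widely between genes, so calls near the threshold are less certain than their adjusted p-values say. A form of this check that drew changed genes from all expression levels recovered fewer, and a form with 1 set of draws exceeded its limit on false calls; several sets with both kinds of spread were then used and all were kept.

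Per-kilobase levels used exon lengths from GENCODE M21 (GRCm38). Promoters and gene order came from RefSeq tables for GRCm38.p6. The members and gene lists were chosen with earlier results of these data known. Of each list and comparison, the text names up to 2 genes called higher and 2 called lower, by size of change, among those with a mean of 5 CPM or more in the higher group whose libraries did not overlap. The E-protein, Id and other Pax genes, Musk, the neighbours and the full set of targets called lower were named after their values were seen. A gene that this rule names among the cooperating factors is not reported here.

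Alternatives were DESeq2 1.42.0 (size factors and Wald test), library size only, looser and stricter filters, limma-voom (limma 3.58.1), only the 4 libraries compared, a replicate block, thinning to the smallest total, other gene lengths, and leaving out each library. Target-list counts under these alternatives were added after seeing the data. Python 3.11.15 and matplotlib 3.10.9 drew the figures.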

Additional observations from a re-analysis of the deposited data

How the results depend on the processing

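Across the alternatives run, Myod1, Myf5, Myog and Pax7 kept their direction and their calls against day 0, except that Pax7 was not tested under the stricter filter, which left 3 called members in each comparison. Between 4-PBA and DMSO no member was called under an alternative that gave it an adjusted p. Myf6, Pax7 and Pax3 had none from the DESeq2 Wald test there and, in every comparison, were not tested under the stricter filter, nor was Myf6 after thinning. Replicate numbers did not pair the libraries (correlations of same-numbered deviations -0.028, -0.0031 and -0.012), and with the replicate block 4, 4 and 0 members and 768 genes between 4-PBA and DMSO were called, beside 855.

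Signs that turned were those of uncalled differences. Leaving out single libraries moved the log2 fold change of Myf6 between -0.51 and 0.75 (DMSO against day 0), -0.31 and 0.95 (4-PBA against day 0), and -0.12 and 0.57 (4-PBA against DMSO). It moved Pax3 with DMSO against day 0 between -2.24 and 0.36, and, between 4-PBA and DMSO, Pax3 between 0.47 and 3.07, Myog between -0.0451 and 0.0578, and Pax7 between -0.0150 and 0.405. Thinning gave Myog -0.003119. Leaving out single libraries gave 295 to 1194 genes called between 4-PBA and DMSO (341 and 295 without 4-PBA replicate 1 or 2), 7 to 24 classic targets lower and 0 to 1 higher. The cause was not tested. Counts of the other lists were not recomputed.

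With coding length, the ratio of Myog to Myod1 was 0.115 (day 0), 3.58 (DMSO) and 3.71 (4-PBA), and that of Myf5 to Myod1 was 0.643, 0.251 and 0.270 in the same order. The share of Myog was then 74.0% with DMSO and 74.3% with 4-PBA. Depth limits Myf6, Pax3 and Pax7, where a library holds between 2 and 87 counts.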
